A study of Homo sapiens with 2 samples.

Results

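The genes described here are 10 genes used to mark or to make stem and progenitor cells, taken by symbol from the 36601 genes of the count tables: POU5F1, SOX2, KLF4, MYC, ALDH1A1, ALDH1A3, PROM1, CD44, BMI1 and SOX9. They were read in single-cell RNA libraries of RWPE1, an immortalized line of normal human prostate epithelium. The control library, called RWPE1 here, is labelled as carrying the empty vector, although the study's text calls it parental. RWPE-ERG-mAKT is the same line with 2 added genes, both introduced with retroviral vectors. They are ERG, an ETS transcription factor that gene fusions switch on in prostate cancer, under an HNRNPA2B1 promoter, and mAKT, a myristoylated AKT1 kinase that is constantly active. The cells were selected with drugs and grown in keratinocyte serum-free medium. Each condition is 1 library, so no difference between them was tested. The intervals cover 95% of counting error only, and line, passage and library cannot be told apart from the added genes.

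POU5F1, SOX2, KLF4 and MYC are the transcription factors that can together return a differentiated cell to pluripotency. KLF4, MYC and SOX9 are also ordinary regulators of epithelia, where they act in differentiation, growth and progenitor cells. BMI1 is a subunit of polycomb repressive complex 1, which keeps the INK4/ARF inhibitors of the cell cycle silent. ALDH1A1 and ALDH1A3 oxidize retinaldehyde to retinoic acid, and their activity is the readout of the ALDH assay for progenitor cells. CD44, the hyaluronan receptor, and PROM1, also called CD133, are surface proteins used to sort such cells.

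Cells with over 2500 detected genes and under 7.5% of unique molecular identifiers (UMIs, counts of captured RNA molecules) from mitochondrial genes were kept. That left 9967 of 12504 RWPE1 barcodes and 14140 of 17355 RWPE-ERG-mAKT barcodes. The labels give 10000 cells as input to each library, fewer than its barcodes. The kept cells had a median of 16972 UMIs in RWPE1 against 13601 in RWPE-ERG-mAKT, and the medians of mitochondrial UMIs were 5.44% and 2.73%. The basal keratin KRT5 was at 2081 and 2008 counts per 1000000 UMIs (CPM) and the luminal keratin KRT18 at 1198 and 542 CPM, so both libraries had the epithelial genes of their label. The libraries shared 37 kept barcodes, and 43 kept RWPE1 cells and 4 kept RWPE-ERG-mAKT cells held at least 2 UMIs of microglia or choroid plexus genes. ERG itself was at 1.44 CPM in RWPE1 against 20.8 CPM in RWPE-ERG-mAKT, which is the direction of the labels.

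The promoter sequences of KLF4 and BMI1 are shown because these were the genes of the 10, among those with over 10 CPM in either library, with the highest ratios to RWPE1, and because ERG belongs to the ETS factors, whose shared core motif is GGAA. Each run is the 250 bases before a RefSeq gene start (GRCh38.p14), 5′ to 3′ on the strand of the gene, with each GGAA or its reverse complement TTCC in capitals. The KLF4 window, chr9:107489770-107490019 on the minus strand, lies inside the span that GENCODE 29 gives KLF4, and overlaps 0 annotated exons. The BMI1 window, chr10:22320849-22321098 on the plus strand, precedes the more upstream of 2 RefSeq starts, lies inside the span of the COMMD3-BMI1 readthrough gene and also overlaps 0 exons.
KLF4: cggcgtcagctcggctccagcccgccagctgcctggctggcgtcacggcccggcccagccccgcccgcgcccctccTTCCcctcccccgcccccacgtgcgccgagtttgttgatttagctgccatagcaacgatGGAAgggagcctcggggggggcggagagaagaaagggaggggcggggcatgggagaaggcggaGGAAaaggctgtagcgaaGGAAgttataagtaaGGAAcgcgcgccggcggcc
BMI1: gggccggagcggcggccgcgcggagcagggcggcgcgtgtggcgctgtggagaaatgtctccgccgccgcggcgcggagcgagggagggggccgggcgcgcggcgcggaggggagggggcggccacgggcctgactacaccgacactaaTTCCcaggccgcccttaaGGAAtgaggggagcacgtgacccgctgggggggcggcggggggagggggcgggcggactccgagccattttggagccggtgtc
The core was found 5 times before KLF4 and 2 times before BMI1, against a median of 3 over 35116 promoter windows of the same length, of which 92.7% held it at least once. The longer ETS sequence CGGAAG, searched on both strands, was in neither window and in 16.5% of all windows. These are matches of letters, and say nothing of binding.

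All 10 genes were found by identifier in GENCODE 29 (GRCh38). ALDH1A3 spans chr15:100877714-100916626 and CD44 chr11:35138870-35232402, both on the plus strand, and SOX9 spans chr17:72121020-72126420 on the plus strand. ALDH1A1 spans chr9:72900662-73080442 on the minus strand. POU5F1 spans chr6:31164337-31180731, PROM1 chr4:15963076-16084378 and SOX2 chr3:181711924-181714436. POU5F1, SOX2, ALDH1A1, ALDH1A3, PROM1, CD44, BMI1 and SOX9 each overlap at least 1 other annotated gene, on the same strand for POU5F1, SOX2, ALDH1A3, PROM1, CD44 and BMI1.

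MYC, CD44 and ALDH1A3 were abundant in both libraries, KLF4, BMI1 and SOX9 were roughly an order of magnitude lower, and POU5F1, SOX2, ALDH1A1 and PROM1 were scarce. Over all kept cells, BMI1, KLF4 and SOX9 were higher in RWPE-ERG-mAKT than in RWPE1, CD44 and MYC were lower, and ALDH1A3 was nearly equal. In RWPE1 the order by UMIs was MYC, CD44, ALDH1A3, SOX9, KLF4, BMI1, POU5F1, ALDH1A1, SOX2 and PROM1, and in RWPE-ERG-mAKT ALDH1A3 stood above CD44, and BMI1 and KLF4 above SOX9. These are counts of 3′ tags, which do not scale with gene length, but genes can differ in how well their ends are captured. Neighbours with overlapping intervals were SOX9 with KLF4 in RWPE1, BMI1 with KLF4 in RWPE-ERG-mAKT, and POU5F1 with ALDH1A1 in both.

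**Figure D1:**
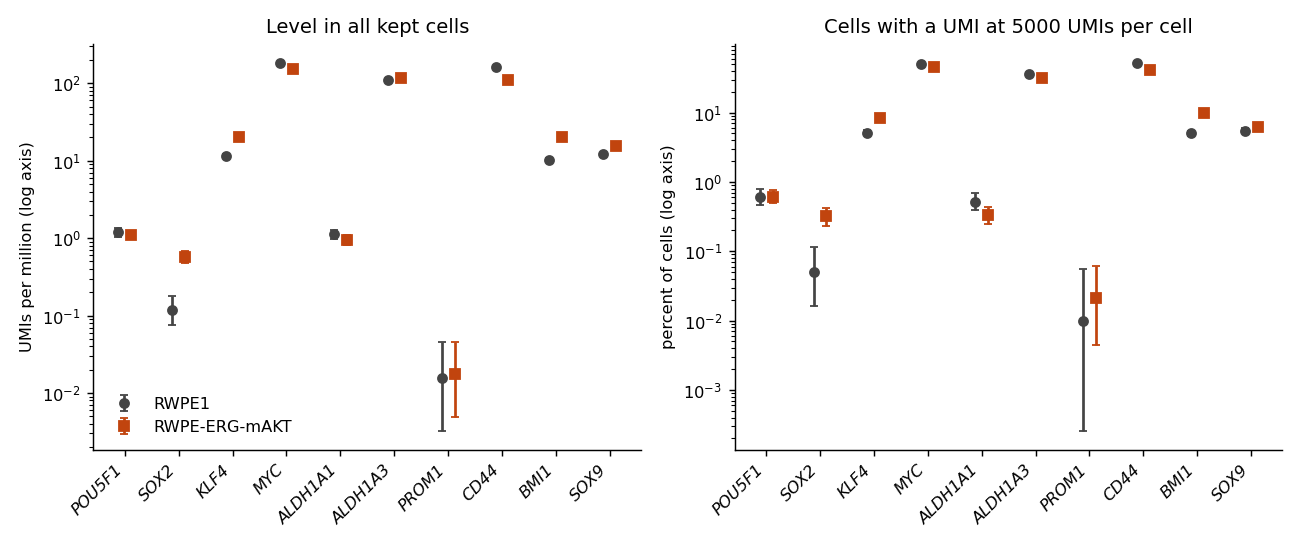
Levels of the 10 genes in RWPE1 (circles) and RWPE-ERG-mAKT (squares), 1 library each. The left panel gives CPM over all kept cells and the right panel the percent of cells with at least 1 UMI after every cell was thinned to 5000 UMIs, both on log axes with exact 95% intervals of counting error. MYC, ALDH1A3 and CD44 lie above 100 CPM, and PROM1 rests on 3 and 4 UMIs.

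Of the 9 genes for which the libraries held at least 50 UMIs between them, 1 (SOX2) was at least 2-fold higher in RWPE-ERG-mAKT and 0 were at least 2-fold lower. The background over 19960 genes was 11.5% higher and 20.2% lower. With 1 CPM added to each level, 0 of the 9 were past 2-fold either way, against 5.57% higher and 8.8% lower of all genes. The counts for lists of related genes given below, also with 1 CPM added, have the same background. The median log2 ratio was 0.09 over the 9 genes and -0.17 over all genes, both without added CPM. The share of the 9 genes past 2-fold was thus near or under the background, and the differences below are mostly smaller than 2-fold.

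BMI1 was at 10.2 CPM (9.78 to 10.7) in RWPE1 against 20.3 CPM (19.8 to 20.9) in RWPE-ERG-mAKT, and the log2 ratio was 0.99 (0.92 to 1.07). Cells with a BMI1 UMI made up 5.01% of RWPE1 (4.59 to 5.45) and 9.74% of RWPE-ERG-mAKT (9.26 to 10.2) after thinning to 5000 UMIs. Within each library BMI1 UMIs were spread almost as a Poisson count would be, with a variance over mean of 1.00 in RWPE1 against 1.01 in RWPE-ERG-mAKT, so that no set of cells with much BMI1 was seen at this depth. Its neighbour COMMD3, which ends upstream of BMI1 and shares a readthrough transcript with it, was at 25.6 CPM in RWPE1 against 64.8 CPM in RWPE-ERG-mAKT. The readthrough gene has no row of its own in the count tables, so its reads cannot be told apart from those of BMI1. In the 1575 and 107 cells with at least 7.5% mitochondrial UMIs, the log2 ratio of BMI1 was -0.032 (-1.18 to 0.92). That ratio rests on 9 BMI1 UMIs in RWPE-ERG-mAKT.

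Of the 20 other polycomb subunits, 1 (CBX6, at 10.8 and 24.2 CPM) was at least 2-fold higher in RWPE-ERG-mAKT with 1 CPM added and 0 were lower, and their median log2 ratio was -0.19, against -0.10 over all genes on that scale. PHC2 was at 40.2 and 21.8 CPM and PHC3 at 52.9 and 28.8 CPM, and both are subunits of the same complex as BMI1. RNF2, its ubiquitin ligase, was at 14.4 and 9.65 CPM. EZH2, the methyltransferase of the other polycomb complex, was at 32.3 and 56.6 CPM. Of the 5 inhibitor genes of the cell cycle read, 4 were higher in RWPE-ERG-mAKT and CDKN2C, at 9.07 and 5.13 CPM, was lower. CDKN2A, whose transcripts encode p16 and ARF, was at 570 and 760 CPM, CDKN2B at 19.3 and 38.3 CPM, CDKN2D at 12.5 and 20.3 CPM and CDKN1A, the p21 inhibitor, at 32.9 and 103.7 CPM.

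KLF4 was at 11.7 CPM (11.2 to 12.1) in RWPE1 against 20.1 CPM (19.6 to 20.7) in RWPE-ERG-mAKT, and the log2 ratio was 0.79 (0.72 to 0.86). In cells with 200 to 2500 genes, of which RWPE1 had 362, the ratio was -0.11 (-0.83 to 0.70). The difference also varied with depth. Of 4 equal groups of RWPE1 cells by depth, the shallowest had KLF4 at 17.7 CPM (16.2 to 19.3) and the deepest at 10.9 CPM. In RWPE-ERG-mAKT these groups had 15.3 CPM (13.9 to 16.8) and 24.1 CPM. The shallowest groups, of 5104 to 13462 and 4446 to 9823 UMIs, thus did not show KLF4 higher in RWPE-ERG-mAKT. The share of positive cells was 5.13% (4.70 to 5.58) and 8.28% (7.83 to 8.74). Unlike BMI1, KLF4 was uneven among RWPE1 cells, with a variance over mean of 1.42 there and 1.21 in RWPE-ERG-mAKT. In RWPE1 the 1% of cells with most KLF4 held 24.5% of its UMIs, and up to 15 UMIs were counted in a cell.

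The genes most like KLF4 across single cells were interferon response genes. Among 8029 genes detected in at least 5% of thinned cells of both libraries, IFIT1, HERC5 and DDX58 had the highest mean Pearson r with KLF4, which for IFIT1 was 0.24 over 9967 RWPE1 cells and 0.06 over 14134 RWPE-ERG-mAKT cells. IFIT1 blocks translation of foreign RNA, HERC5 attaches ISG15 to proteins and DDX58 encodes the RNA sensor RIG-I. RWPE1 cells with 0, 1, 2 and at least 3 KLF4 UMIs had IFIT1 at 21.0, 145.8, 394.9 and 1100 CPM (912.8 to 1314), the last over 22 cells. In RWPE-ERG-mAKT the same classes had 24.5, 37.0, 57.7 (38.4 to 83.4) and 821 CPM (649 to 1025), the last over 19 cells, of which 7 had an IFIT1 UMI and 1 cell held 29 of the 78 UMIs. IFIT1 was thus higher with each class of KLF4 in both libraries, and the classes with 1 and 2 KLF4 UMIs were lower in RWPE-ERG-mAKT.

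A list of 8 interferon response genes (IFIT1, IFIT2, IFIT3, ISG15, MX1, OAS1, IFI6 and IFI44L) summed to 6.62 UMIs per 5000 in RWPE1 cells with KLF4 and 1.03 in those without, a ratio of 6.45 (6.20 to 6.71). The same ratio in RWPE-ERG-mAKT was 1.61 (1.56 to 1.66), from 3.73 and 2.32 UMIs. In RWPE1 every gene of the list was higher in KLF4-positive cells, from a log2 ratio of 1.39 for IFI44L to 3.52 for IFIT2. In RWPE-ERG-mAKT IFIT2 was at 62.2 against 15.6 CPM, and IFIT3 was higher by 1.42, IFIT1 by 1.07 and ISG15 by 0.79, whereas MX1 (0.16), OAS1 (-0.05), IFI6 (-0.07) and IFI44L (-0.12) lay near 0.

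Turned around, and with a class chosen after its values were seen, the 310 RWPE1 cells (3.11%) with at least 10 UMIs of the list held KLF4 at 95.5 CPM, against 9.49 CPM in the other 9657 cells, and the log2 ratio was 3.33 (3.05 to 3.60). In RWPE-ERG-mAKT the 554 such cells (3.92%) held KLF4 at 38.3 CPM against 17.8 CPM, and the log2 ratio was 1.10 (0.80 to 1.39). The difference between the libraries therefore pointed opposite ways in the classes. KLF4 was higher in RWPE-ERG-mAKT by a log2 ratio of 0.91 (0.76 to 1.07) in the other cells, and lower in the interferon-high cells, where the ratio was -1.32 (-1.69 to -0.95). This difference was not tested. With limits of 5 and 20 UMIs for the class, the latter ratio was -1.46 and -0.91. The class is not the same in the libraries, since IFIT3 was at 809 CPM in the RWPE1 cells and 255 CPM in the RWPE-ERG-mAKT cells, and IFI6 at 112.9 and 336 CPM.

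Interferon-high cells were not set apart by depth in RWPE1, with a median of 16820.5 UMIs against 16989, and were shallower in RWPE-ERG-mAKT, with 11784 against 13703.5. Of the other genes, SOX9 was also higher in them, at 26.5 against 11.6 CPM in RWPE1, and at 21.3 against 14.1 CPM in RWPE-ERG-mAKT. ALDH1A3 was lower, at 64.5 against 108.5 CPM and 87.0 against 105.0 CPM. MYC and CD44 differed by less than their counting intervals in both libraries. The interferon gene IFNL1 gave 5 UMIs in the high class of RWPE1 and 0 outside it, and IFNB1 gave 0 UMIs in that library after thinning.

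**Figure D2:**
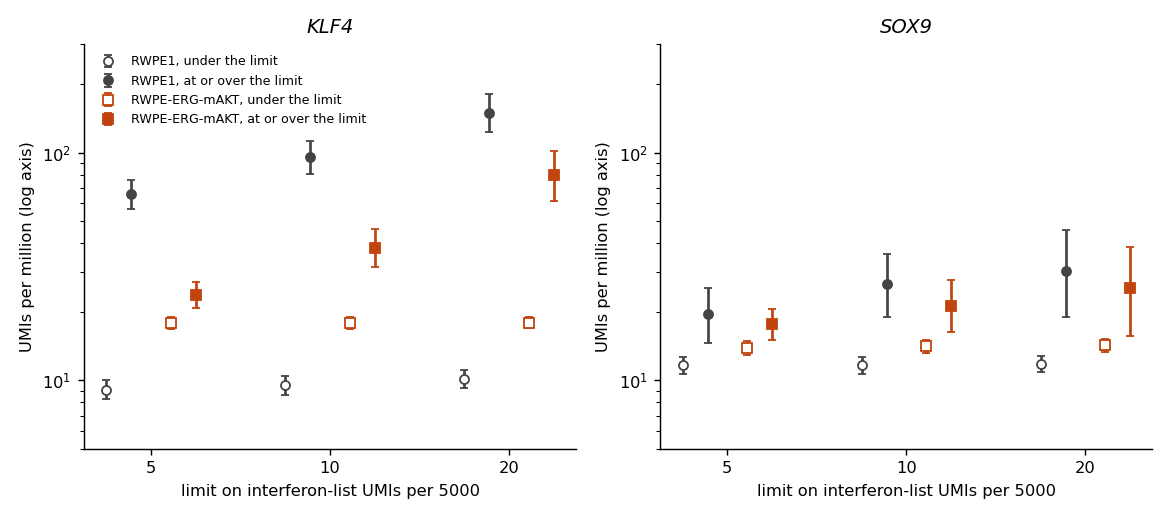
KLF4 (left) and SOX9 (right) in CPM on a log axis, in cells at or over (filled) and under (open) a limit of 5, 10 or 20 UMIs of the interferon list per 5000, for RWPE1 (circles) and RWPE-ERG-mAKT (squares), with exact 95% intervals of counting error. At a limit of 10 KLF4 was at 95.5 and 38.3 CPM in the filled points and 9.49 and 17.8 CPM in the open ones.

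KLF4-positive RWPE1 cells also had more of the mesenchymal list, 4.87 against 2.14 UMIs per 5000, a ratio of 2.28 (2.19 to 2.38). Vimentin (VIM), its intermediate filament gene, was at 292 CPM in RWPE1 cells without KLF4 and 666 CPM in those with 1 UMI. In RWPE-ERG-mAKT it was at 286 and 262 CPM. KLF4-positive cells there had more of the NF-kB target list, with 2.65 against 1.69 UMIs per 5000. These cells also had a higher median depth before thinning than KLF4-zero cells, 15215.5 against 13465 UMIs, whereas in RWPE1 it was lower, 15135 against 17064.5, and the part of depth was not tested.

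Among the 12 other KLF genes, 3 were at least 2-fold higher in RWPE-ERG-mAKT with 1 CPM added and 0 were lower. By that rule 5.57% of all genes were higher and 8.8% lower. KLF6 was at 69.0 and 248 CPM, with a log2 ratio of 1.85 (1.82 to 1.88), and KLF10, which TGF-beta induces, at 17.6 and 37.3 CPM. KLF2, a regulator of quiescence, gave 87 and 1599 UMIs, and 0.251% and 3.78% of thinned cells were positive for it. KLF12 was lower, at 34.2 and 19.2 CPM. KLF5, a KLF gene of basal epithelium, was the most abundant of them in RWPE1, and was at 110 and 87.9 CPM.

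SOX9, a transcription factor of epithelial progenitors, was at 12.1 CPM (11.7 to 12.6) in RWPE1 against 15.5 CPM (15.0 to 16.0) in RWPE-ERG-mAKT, and the log2 ratio was 0.35 (0.27 to 0.43). In cells with 200 to 2500 genes the ratio was -0.91 (-1.61 to -0.13). Positive cells made up 5.47% (5.03 to 5.93) and 6.26% (5.87 to 6.67). The gene was uneven among cells in both libraries, with variance over mean of 1.20 and 1.26 and up to 26 UMIs in an RWPE1 cell. SERPINB5, the epithelial serpin maspin, CLDN4, a claudin of tight junctions, and SOX4 were most like it, with r for SERPINB5 of 0.11 and 0.10.

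In RWPE-ERG-mAKT, cells with 0, 1, 2 and at least 3 SOX9 UMIs had CLDN4 at 17.4, 50.3, 228 and 409 CPM (300 to 543), and SOX4 at 129, 229, 482 and 661 CPM. The last class held 23 cells. In RWPE1 the classes with 0, 1 and 2 SOX9 UMIs had CLDN4 at 11.95 (10.98 to 12.98), 14.7 (10.4 to 20.3) and 25.8 CPM (7.03 to 66.1), with overlapping intervals. The 11 RWPE1 cells with at least 3 had 90.9 CPM (29.5 to 212), from 5 CLDN4 UMIs. SOX9-positive cells of RWPE-ERG-mAKT had 1.88 UMIs per 5000 of the hillock list against 0.80 in SOX9-zero cells, a ratio of 2.34 (2.22 to 2.46). The list holds genes of hillock and luminal progenitor cells, KRT13-positive epithelium that lies between basal and luminal states. Of its genes, KRT13 was at 31.0 against 4.97 CPM. In RWPE1 the ratio was 1.24 (1.17 to 1.30), and there KRT4 stood out with 54.3 against 12.1 CPM. KRT13 was far higher in RWPE1, at 247 against 200 CPM.

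SOX4, a relative of SOX9 active in progenitors and in cancer, was at 46.9 CPM in RWPE1 against 152 CPM in RWPE-ERG-mAKT. It was the 1 gene of 8 other SOX genes read that was at least 2-fold higher with 1 CPM added, and SOX13, at 22.1 and 3.15 CPM, the 1 that was lower. SOX15, which accompanies stratified epithelium, was at 49.9 and 44.1 CPM.

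ALDH1A3 was at 109 CPM (107.9 to 110.9) in RWPE1 against 117 CPM (115 to 118) in RWPE-ERG-mAKT, and the log2 ratio was 0.09 (0.07 to 0.12), while the share of positive cells was lower, 36.1% (35.1 to 37.0) against 31.7% (30.9 to 32.5). The gene was more concentrated in RWPE-ERG-mAKT, where the variance over mean was 1.94 against 1.49, and the 1% of cells with most ALDH1A3 held 12.5% of its UMIs against 7.70%. Its level also grew with depth in RWPE-ERG-mAKT, from 79.0 CPM in the shallowest of 4 equal groups of cells to 141 CPM in the deepest, while RWPE1 ran from 93.8 to 114 CPM. ALDH1A3 therefore reads as equal, higher or lower between the libraries depending on the cells and scaling used, and no direction is given to it.

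The clearest pattern of ALDH1A3 was inside RWPE-ERG-mAKT. Cells with 0, 1, 2 and at least 3 of its UMIs (9656, 2875, 924 and 679 cells) had KRT19, a keratin of luminal and intermediate cells, at 279, 568, 915 and 1605 CPM (1563 to 1649). The basal keratin KRT14 went the other way, at 2837, 2069, 1396 and 963 CPM (930 to 996). KRT13 was at 2.49, 5.01, 9.31 and 68.0 CPM (59.5 to 77.4), and SOX9 at 11.2, 15.2, 24.7 and 41.5 CPM (35.0 to 49.0). Even the highest of these KRT13 levels was under those of RWPE1. There KRT13 was at 186.5 CPM in ALDH1A3-zero cells and 230.7 CPM in ALDH1A3-positive cells. MAL2, a protein of apical transport, followed KRT19 and reached 424 CPM (402 to 446).

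For KRT19 and KRT14, RWPE1 showed the same directions over a smaller range. Other genes of the basal and hillock lists were mixed there. In ALDH1A3-positive RWPE1 cells KRT15 was higher and LY6D lower, with log2 ratios of 0.24 (0.17 to 0.32) and -0.21 (-0.37 to -0.07). KRT5 was slightly lower and KLK5 higher, at -0.09 and 0.47, and TP63 was near 0, at 0.02. KRT19 was at 830 CPM in the cells with 0 ALDH1A3 UMIs and 1033 CPM (988 to 1080) in those with at least 3, and KRT14 at 1958 and 1309 CPM. VIM was lower with more ALDH1A3 in both libraries, from 362 to 152 CPM in RWPE1, and from 325 to 99.9 CPM in RWPE-ERG-mAKT. SOX9 did not follow ALDH1A3 in RWPE1, with overlapping intervals at 12.4 CPM (11.2 to 13.7) and 16.4 CPM (11.2 to 23.3) in the outer classes.

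**Figure D3:**
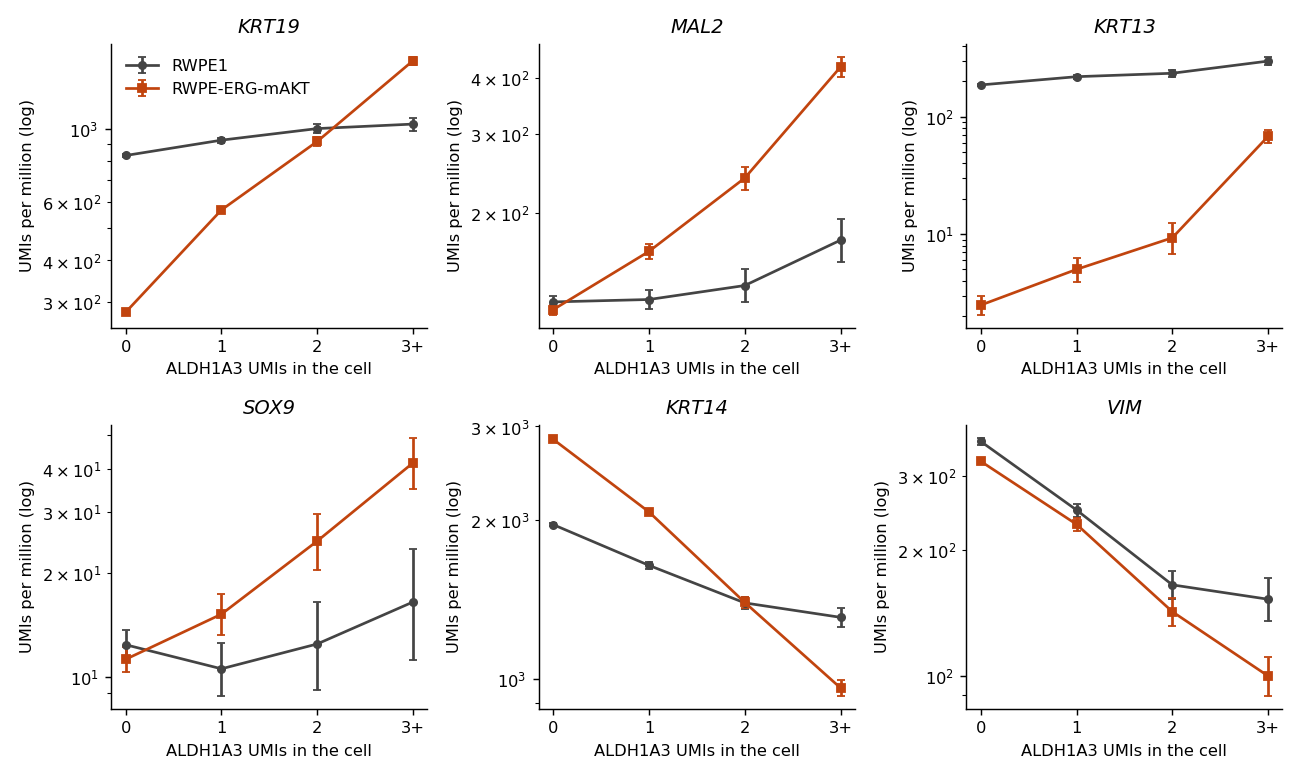
KRT19, MAL2, KRT13, SOX9, KRT14 and VIM in CPM (log axes) by the number of ALDH1A3 UMIs in the cell, all cells thinned to 5000 UMIs, with exact 95% intervals of counting error. In RWPE-ERG-mAKT (squares) KRT19 runs from 279 to 1605 CPM and KRT14 from 2837 to 963 CPM, and in RWPE1 (circles) the lines are flatter.

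By list, ALDH1A3-positive RWPE-ERG-mAKT cells had more luminal UMIs than ALDH1A3-zero cells (23.2 against 19.3 per 5000), fewer basal UMIs (21.1 against 29.7) and more hillock UMIs (1.37 against 0.64, a ratio of 2.13). The luminal difference was carried by KRT8, KRT18, KRT19 and CD24, while KLK3, TMPRSS2 and HOXB13, genes of secretory luminal cells, stayed under 1 CPM on both sides. Before thinning, the ALDH1A3-positive cells were deeper, with a median of 15005.5 UMIs against 13097.5, and had 2.96% against 2.62% mitochondrial UMIs. The part of these values in the pattern was not tested.

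ALDH1A1 was far below ALDH1A3, at 1.12 CPM (0.98 to 1.28) in RWPE1 against 0.946 CPM (0.82 to 1.08) in RWPE-ERG-mAKT, from 216 and 213 UMIs. Its few UMIs were clustered, with a variance over mean of 1.41 and 1.40 and up to 8 and 13 UMIs in a cell. After thinning 52 RWPE1 cells (0.522%) and 47 RWPE-ERG-mAKT cells (0.333%) were positive. ALDH1A2, the remaining member of the subfamily, was at 1.83 and 0.862 CPM.

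Of the 17 other aldehyde dehydrogenases, 0 were at least 2-fold higher in RWPE-ERG-mAKT with 1 CPM added and 2 were lower. Their median log2 ratio was -0.42. Over all genes 5.57% were higher and 8.8% lower, with a median of -0.10. The 2 lower dehydrogenases were ALDH7A1, of lysine breakdown, at 50.4 and 17.2 CPM, and ALDH18A1, of proline synthesis, at 32.4 and 13.6 CPM. ALDH1B1, a mitochondrial enzyme, was higher at 13.3 and 24.1 CPM. Around ALDH1A3, the retinoid genes were split, with 3 of 16 higher and 2 lower by the same rule. DHRS3, which returns retinaldehyde to retinol, was at 8.79 and 37.5 CPM, LRAT, which stores retinol as ester, at 1.61 and 6.19 CPM, and FABP5, which carries retinoic acid and fatty acids, at 201 and 476 CPM. RARG, the retinoic acid receptor of epidermis, was at 37.9 and 12.4 CPM, and CRABP2, which hands retinoic acid to its receptors, at 12.9 and 5.06 CPM.

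CD44 was at 160 CPM (158.6 to 162.2) in RWPE1 against 111 CPM (109.4 to 112.1) in RWPE-ERG-mAKT, with a log2 ratio of -0.53 (-0.56 to -0.51), and its positive cells made up 52.0% (51.0 to 53.0) and 40.9% (40.1 to 41.8). In cells with at least 7.5% mitochondrial UMIs, of which RWPE-ERG-mAKT had 107, the ratio was near 0. CD44 was higher in cells with more basal RNA in both libraries. KRT14 and S100A2, a calcium-binding protein of basal cells, and the noncoding RNA MIR31HG were most like it, with r for KRT14 of 0.20 in RWPE1 against 0.12 in RWPE-ERG-mAKT, and KRT18 was least like it. RWPE1 cells with 0, 1, 2 and at least 3 CD44 UMIs had KRT14 at 1397, 1857, 2485 and 3312 CPM (3249 to 3377) and KRT18 at 1246, 1138, 979 and 746 CPM. In RWPE-ERG-mAKT KRT14 went from 2264 to 3390 CPM and KRT18 from 550 to 410 CPM. KRT14 itself was higher in RWPE-ERG-mAKT as a whole (1600 and 2191 CPM) although CD44 was lower. TP63, the basal master regulator, was at 142 and 61.7 CPM.

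Genes that act on CD44 did not share a direction. HAS3, which makes hyaluronan, was at 1.73 and 10.2 CPM, and HMMR, another hyaluronan receptor of dividing cells, at 89.8 and 175 CPM. ESRP1, which directs epithelial splicing of CD44, was at 81.5 and 46.6 CPM, and MMP14, a protease that sheds it, at 29.2 and 6.82 CPM. Counts of 3′ tags do not separate the splice forms of CD44. By the 2-fold rule with 1 CPM added, 1 of 12 genes was higher and 1 was lower.

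PROM1 gave 3 UMIs in RWPE1 against 4 in RWPE-ERG-mAKT, so neither its share of positive cells nor a difference could be read. Among 16 other surface markers of prostate progenitors with enough UMIs, 1 was at least 2-fold higher and 4 were lower with 1 CPM added. The shares of all genes were 5.57% and 8.8%. LY6D was at 33.2 and 1.89 CPM, PROCR at 83.9 and 13.0 CPM and LGR4 at 48.6 and 13.5 CPM. CD24, a surface protein of luminal cells, was at 43.7 and 89.3 CPM, and ITGA6, the basal integrin, at 168 and 88.5 CPM.

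MYC was the most abundant of the 10 genes, at 184 CPM (182 to 186) in RWPE1 against 153 CPM (151.1 to 154.3) in RWPE-ERG-mAKT, and the log2 ratio was -0.27 (-0.29 to -0.25). Positive cells made up 50.7% (49.8 to 51.7) and 45.6% (44.7 to 46.4). EGFR, THBS1 and F3, the genes of the epidermal growth factor receptor, thrombospondin and tissue factor, were most like it, and the cell cycle inhibitor CDKN1A least, with r from -0.08 to 0.15. THBS1 was at 264 CPM in RWPE1 cells with 0 MYC UMIs and 359 CPM (343 to 376) in those with at least 3, and at 105 and 159 CPM (148 to 170) in RWPE-ERG-mAKT.

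Genes of ribosome making and growth that MYC induces had a median near that of all genes. Of the 22 1 (RRP9, at 14.8 and 41.0 CPM) was at least 2-fold higher with 1 CPM added and 0 were lower, with a median log2 ratio of -0.01. EIF4A1, an RNA helicase of translation, was at 674 and 1203 CPM, and GNL3, a nucleolar GTPase, at 78.6 and 143.7 CPM. Of MYC's network, MXD4, a repressor that competes for its partner MAX, was at 21.3 and 45.9 CPM, MAX itself at 44.3 and 38.4 CPM, MLXIP, a glucose-sensing relative, at 44.0 and 23.3 CPM and FBXW7, which marks MYC for degradation, at 87.9 and 54.7 CPM.

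POU5F1 was at 1.19 CPM (1.04 to 1.36) in RWPE1 against 1.10 CPM in RWPE-ERG-mAKT, from 230 and 248 UMIs, with a log2 ratio of -0.11 (-0.38 to 0.15), and 0.612% and 0.616% of thinned cells were positive. Its UMIs were scattered like a Poisson count, with at most 1 in any thinned RWPE1 cell. The gene overlaps TCF19 on the opposite strand and PSORS1C3 on the same strand. Its retrogene POU5F1B, counted apart, gave 21 and 11 UMIs. SOX2 was at 0.119 CPM (0.076 to 0.179), from 23 UMIs, and 0.577 CPM (0.48 to 0.69), from 130 UMIs, and the log2 ratio was 2.28 (1.63 to 2.98). SOX2-OT, the noncoding gene that contains SOX2 on the same strand, went the opposite way, at 9.37 and 3.71 CPM.

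Those shares were set against 20 genes chosen as genes of distant tissues. Their median share of positive cells was 0 in both libraries, but the highest was 3.64% in RWPE1 (TNNT2, a cardiac troponin) and 0.538% in RWPE-ERG-mAKT (HBA1, a hemoglobin). The POU5F1, SOX2, ALDH1A1 and PROM1 shares of RWPE1 lay under the first, and the SOX2, ALDH1A1 and PROM1 shares of RWPE-ERG-mAKT under the second, so these shares do not stand above the highest of the 20. Each comparison rests on 1 gene, and TNNT2 was in 0.050% of RWPE-ERG-mAKT cells. Whether its share in RWPE1 comes from stray reads was not tested. The next highest was APOA1, at 0.181% in RWPE1 and 0.156% in RWPE-ERG-mAKT, which is under POU5F1 (0.612%) and ALDH1A1 (0.522%) in RWPE1, and under SOX2 (0.318%) and ALDH1A1 (0.333%) in RWPE-ERG-mAKT. ALDH1A1 UMIs were moreover clustered in few cells, as given above. The POU5F1 share of RWPE-ERG-mAKT, 0.616% (0.493 to 0.759), overlapped the interval of HBA1 (0.424 to 0.673).

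Most other genes of the pluripotency network were scarce too, though L1TD1 and DNMT3B stood above POU5F1 in RWPE1. NANOG gave 47 UMIs in RWPE1 against 32 in RWPE-ERG-mAKT. Of 21 such genes, 8 reached 50 UMIs over both libraries. Of those 0 were at least 2-fold higher with 1 CPM added and 2 were lower, against 5.57% and 8.8% of all genes. L1TD1, an RNA-binding protein of embryonic stem cells, was at 5.18 CPM in RWPE1 against 0.138 CPM in RWPE-ERG-mAKT, with 2.50% and 0.071% of thinned cells positive. DNMT3B, the DNA methyltransferase of early embryos, was at 2.58 and 0.760 CPM. ZFP42, also called REX1, gave 160 UMIs in RWPE1 against 1 in RWPE-ERG-mAKT. The highest of the 21 in level was TFCP2L1, which epithelia also use, at 56.8 and 88.2 CPM.

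Most cells had UMIs of few of the 10 genes. At 5000 UMIs per cell, 12.4% of RWPE1 cells and 17.0% of RWPE-ERG-mAKT cells had a UMI of 0 of the genes, 13.6% and 11.2% had 3 of them, and 5 was the most in any cell (10 and 27 cells). Of 45 pairs, 19 had at least 20 cells expected with both genes in each library if the genes were independent, and none of them held SOX2 or PROM1. MYC with ALDH1A3, with CD44 and with BMI1 lay between 0.95 and 1.02 times the expected number in both.

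KLF4 with SOX9 was the pair furthest over the expected number in both libraries, with 41 cells against 27.9 expected in RWPE1, a ratio of 1.47 (1.05 to 1.99), and 114 against 73.3 in RWPE-ERG-mAKT, a ratio of 1.56 (1.28 to 1.87). With a second random draw the ratios were 1.16 (0.80 to 1.62) and 1.32 (1.07 to 1.62), so the RWPE1 value was within its counting error. KLF4 with ALDH1A3 departed in opposite ways, with 0.74 (0.62 to 0.88) in RWPE1 against 1.22 (1.11 to 1.34) in RWPE-ERG-mAKT, and the second draw gave 0.88 (0.76 to 1.02) and 1.22. ALDH1A3 with SOX9 was at 0.96 (0.82 to 1.10) in RWPE1 against 1.37 (1.23 to 1.51) in RWPE-ERG-mAKT, and 0.97 and 1.26 with the second draw. The differences between the libraries were not tested.

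**Figure D4:**
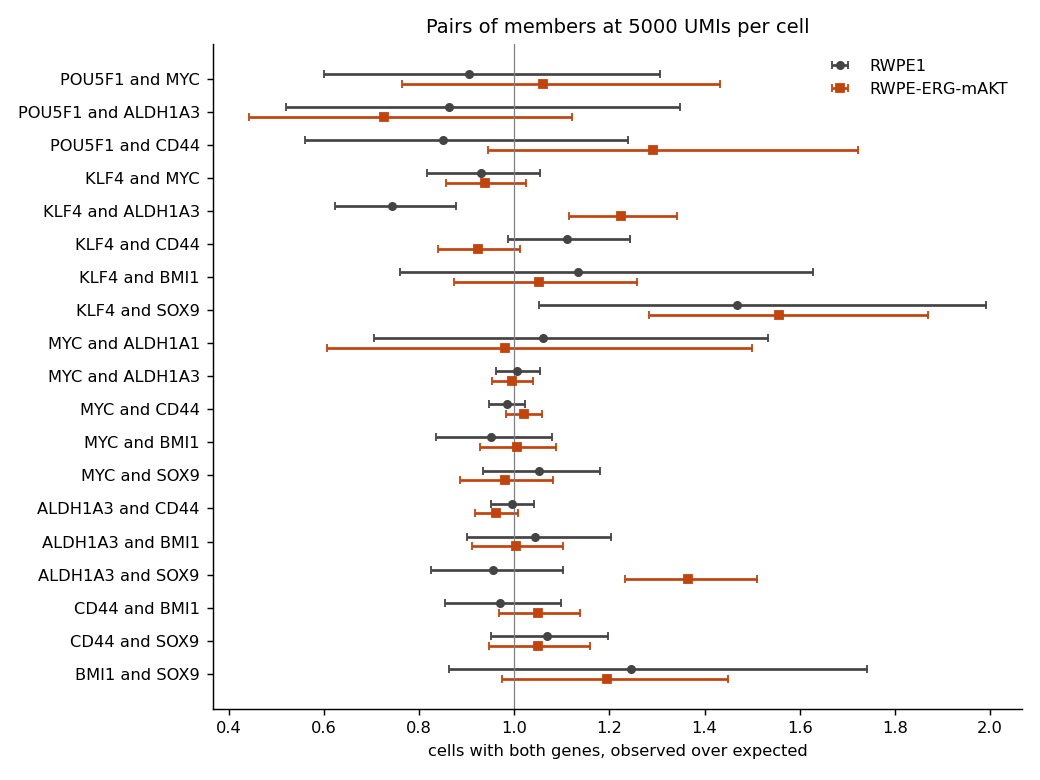
Observed over expected number of cells with both genes, for the 19 pairs with at least 20 expected cells in each library, after thinning to 5000 UMIs (RWPE1 circles, RWPE-ERG-mAKT squares, exact 95% intervals of counting error). KLF4 with SOX9 lies right of 1 in both libraries, and KLF4 with ALDH1A3 on opposite sides.

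Cells with and without an ERG UMI had similar levels of the more abundant genes. Of the thinned RWPE-ERG-mAKT cells 1250 had an ERG UMI and 12884 had none, and KLF4, MYC, ALDH1A3, CD44, BMI1 and SOX9 had log2 ratios from -0.11 to 0.25 between them, each with an interval that held 0. SOX2, with 9 and 37 UMIs, had a ratio of 1.33 (0.09 to 2.40). Cells without an ERG UMI at this depth need not lack ERG.

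**Figure D5:**
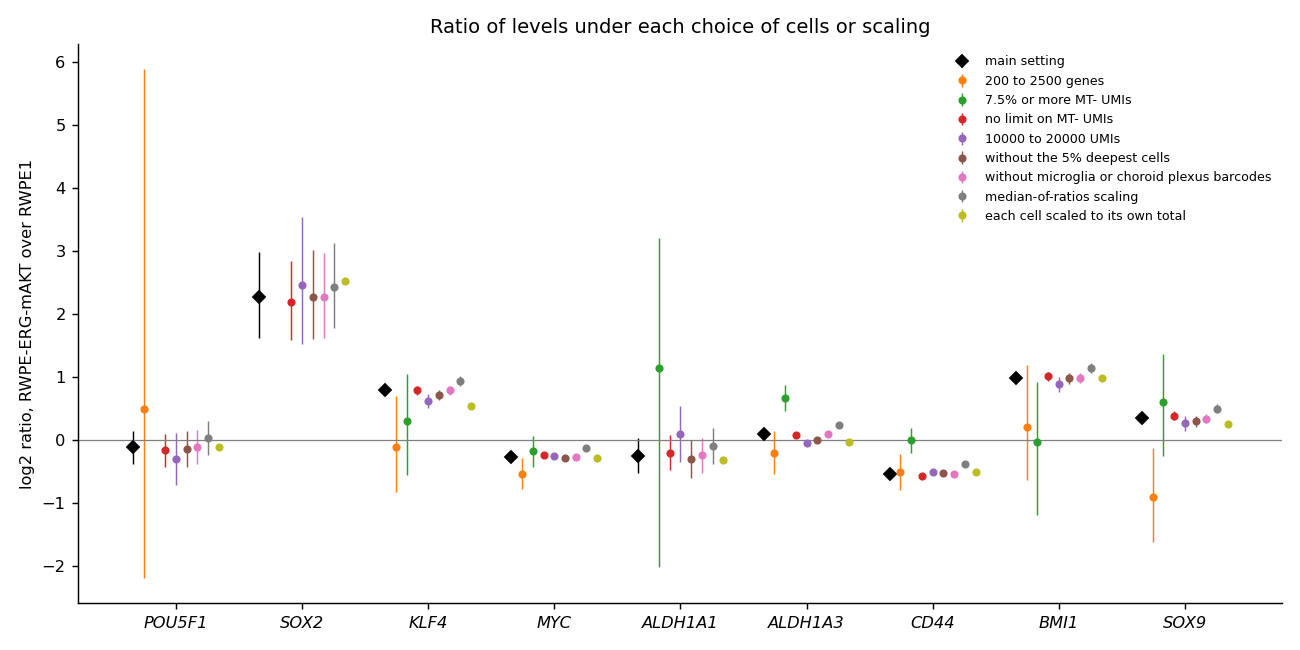
Log2 ratio of each gene between the libraries (RWPE-ERG-mAKT over RWPE1) in the cells described (black diamonds) and under 8 other choices of cells or scaling (colored points), with 95% intervals of counting error where these could be computed. PROM1 is left out for its few UMIs. BMI1 stays between 0.88 and 1.14 except in cells with 200 to 2500 genes or with at least 7.5% mitochondrial UMIs, and ALDH1A3 lies on both sides of 0.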

How the data were processed

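Droplet 3′ single-cell libraries (1 per condition) were aligned to hg38 and turned into UMI counts per gene and cell with Cell Ranger 7.1.0 by the authors, who deposited the raw count matrices. Their own later limits were 200 to 2500 genes per cell. Here cells with over 2500 genes and under 7.5% mitochondrial UMIs were kept, which favours deep barcodes. Doublets were not removed. Levels were summed UMIs over all kept cells, and shares were taken after thinning each cell without replacement to 5000 UMIs, which left out 6 RWPE-ERG-mAKT cells. Intervals were exact Poisson, Clopper-Pearson and conditional binomial intervals, and cover counting error only. The members and lists were chosen with earlier results of these data known. In each list of genes related to a member, up to 3 genes that differed most between libraries were named, if either level reached 20 CPM, and for members in at least 5% of cells the 3 most alike genes. Other list genes were named for their role after their values were seen, and the interferon-high class was also chosen then. The code was tested on simulated data. Some items are not reported here. Alternatives were other limits on cells, scalings, depths and random draws. The software was numpy 2.4.6, pandas 2.3.3, scipy 1.17.1 and matplotlib 3.10.9 under Python 3.11.15.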

Additional observations from a re-analysis of the deposited data

How the results depend on the processing

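Cells with 200 to 2500 genes numbered 362 in RWPE1 and 2775 in RWPE-ERG-mAKT. In them the log2 ratios of KLF4, ALDH1A3 and SOX9 were -0.11, -0.21 and -0.91, opposite in sign to those reported. Of the genes with a computable ratio there, 0 were past 2-fold higher. SOX2 had no such ratio, because those RWPE1 cells held 0 of its UMIs, while the RWPE-ERG-mAKT cells held 9. Whether SOX2 differed in these cells could thus not be read. In cells with 10000 to 20000 UMIs ALDH1A3 was also below 0, at -0.040 (-0.080 to 0.00088). It was at -0.031 with each cell scaled to its own total. In cells with at least 7.5% mitochondrial UMIs (1575 and 107 cells) CD44 was at 0.0021 (-0.20 to 0.19). BMI1 was at -0.032 there, with a wide interval of -1.18 to 0.92. The number of the genes past 2-fold higher was 2 with no limit on mitochondrial UMIs and 2 under median-of-ratios scaling, which moved all log2 ratios by 0.15. Over all genes, 1956 were higher and 3422 lower by 2-fold with 0.1 CPM added, against 1112 and 1756 with 1 CPM. The KLF4 and SOX9 pair was the 1 pair past the limits set for a departure in both libraries, and 0 pairs were past them when cells were thinned to 2000 UMIs, in a second random draw, or in cells with 10000 to 20000 UMIs. The causes were not tested. The interferon list in KLF4-positive RWPE1 cells had a ratio of 5.11 when thinned to 2000 UMIs and 5.80 in a second draw, settings added after seeing the data. Of the alternatives to the levels, 33 gave a value inside the counting interval of the main value and 28 a value outside it. Another 7 had the opposite sign to a main value whose interval excluded 0. The counting error of the alternatives themselves was not part of this sorting, and some of them rest on few UMIs. No paired analysis was possible because each condition is 1 library.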
